A study of Homo sapiens with 2 samples.

Results

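The genes described here encode developmental transcription factors of the forkhead, SOX, T-box, homeobox and related families, and their nascent RNA was measured in untreated BJ cells. BJ is a human skin fibroblast line. The genes were chosen by their symbols: forkhead FOXA to FOXS, SOX, TBX, the sine oculis homeobox genes, MEIS, PBX, PRRX, TWIST, SNAI, ZEB, MSX, MEOX, OSR, LHX, DLX, EN1, RUNX, GATA2 to GATA6 and TCF21, without the HOX genes. Of the 136 RefSeq protein-coding genes that match, 70 had a value among the 12353 genes of the table and 66 had none. The series holds 2 biological replicates of 1 group, with no treatment and no second condition, grown in medium with 10% fetal calf serum. In global run-on sequencing (GRO-seq), polymerases already engaged in isolated nuclei extend their transcripts with bromouridine, and the tagged RNA is pulled down and sequenced, so a value reports engaged polymerase and not mature mRNA.

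These families share DNA-binding domains, such as the winged helix of forkhead proteins, the high mobility group box of SOX proteins and the homeodomain, and they fix which genes a cell lineage can use. In connective tissue, PRRX1, TWIST1, TWIST2, SNAI2 and the ZEB genes are known as mesenchymal regulators, TBX and MEIS genes as regulators of limb and organ patterning, and RUNX2, SOX9 and FOXC genes as regulators of skeletal tissue. Other members are known for other lineages, such as FOXA genes for endoderm, SOX1 to SOX3 for neural progenitors, SOX17 and SOX18 for endothelium, GATA4 to GATA6 for heart and gut, and FOXP3 for regulatory T cells.

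Levels are given as FPKM, the fragments per kilobase of gene scaled to library size, in library a and then library b, with means ± SD over the 2 libraries (n = 2). The labels number the replicates but do not say which number belongs to library a or to library b. No source used here states the read depth or the gene length behind the FPKM, so an order of FPKM between genes also depends on that length, and no counting interval is given. The median gene had a mean FPKM of 11.7. No value was 0, and the lowest were 0.29 and 0.27, so a gene without a value is described only as having none. For the labelled cell type, all 11 fibroblast markers had values, from DCN at 7.34 to COL1A1 at 649, with summed FPKM of 1998 and 1911. COL1A1, VIM (539) and COL1A2 (353) were the highest. Above the median gene lay 9 of the 11, while DCN and PDGFRA (8.715) lay below it. None of the 5 endothelial and 5 leukocyte markers had a value, and of 6 keratinocyte markers CDH1 alone had one, at 1.49. Of the melanocyte markers 4 of 6 had values (summed 42.7 and 37.3), as did 4 of 4 smooth muscle markers (28.3 and 29.05) and 3 of 4 neuron markers (10.9 and 11.3).

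The share of members with a value was 51.5%, against 59.8% of all 20056 RefSeq protein-coding genes. Counted over matching symbols only, and not over whole families, it ran from every gene of 3 families down to 1 gene of 5. All 7 MEIS and PBX genes of the TALE homeobox class, all 5 SNAI and ZEB genes and both OSR genes had values. By contrast 5 of 19 other homeobox genes (DLX, LHX, MSX, MEOX and EN1) and 1 of 5 GATA genes had one. Between these stood forkhead genes with 28 of 52, SOX with 8 of 19, T-box with 6 of 13 and the sine oculis homeobox genes with 3 of 6. PRRX had 1 of 2, and the RUNX and the TWIST and TCF21 groups had 2 of 3 each. The 52 forkhead symbols include FOXL2NB, a neighbour of FOXL2 that matched by name only. The 48 noncoding RefSeq genes whose symbols match, long noncoding RNAs and pseudogenes, had no value. The share over all noncoding genes was not computed. Values were given for 12000 RefSeq protein-coding genes, among 12202 identifiers with a symbol, so this count does not mark a trait of the members.

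**Figure D1:**
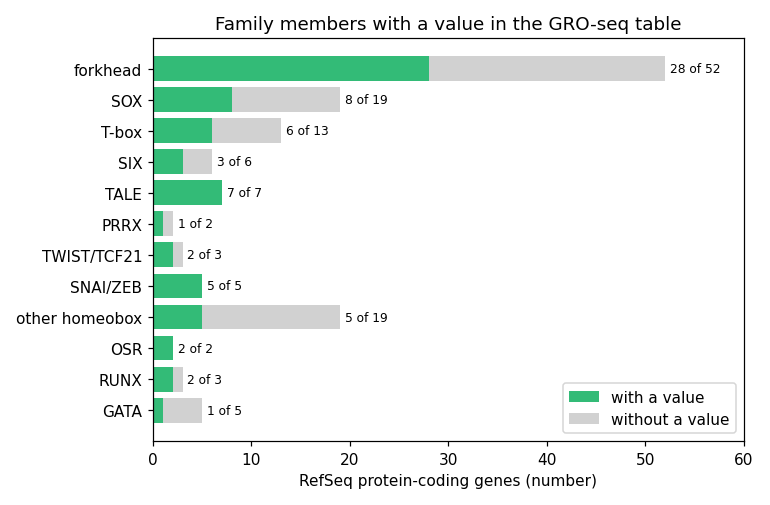
Number of RefSeq protein-coding genes in each family with a value in the GRO-seq table (green) and without one (grey). The TALE bar holds MEIS and PBX genes only. These and the SNAI/ZEB and OSR genes all had values, whereas 5 of 19 other homeobox genes and 1 of 5 GATA genes did.

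Members with values ranged from very strong to weak nascent transcription, and most lay below the typical gene. The median member had an FPKM of 8.595 (quartiles 4.88 and 17.9), 0.735 times the median gene, and 27 of 70 (38.6%) lay above the median gene, as do 50% of all genes by definition. On the log2 scale of FPKM + 0.1, averaged over the libraries, the members' median lay at -0.44 ± 0.0522 relative to the median of all genes. Means ranged 97.2-fold, from FOXA1 at 1.89 to TBX3 at 184. At the top, 3 members (4.29%) reached a mean FPKM of 100, compared with 2.43% of all genes. The 8 highest, TBX3, SNAI2, TWIST1, RUNX1, OSR2, MEIS1, GATA2 and TWIST2, came in the same order in both libraries, and the ranges of neighbours among them did not overlap. TBX5, the ninth gene, spanned a range that reached those of TWIST2 and GATA2. Over the full order, 54 of the 69 neighbouring pairs had overlapping ranges and 15 did not, so most of the lower ranks are not separated by the replicates. No such count was made for neighbouring ranks of other genes, so it is not a comparison with them.

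**Figure D2:**
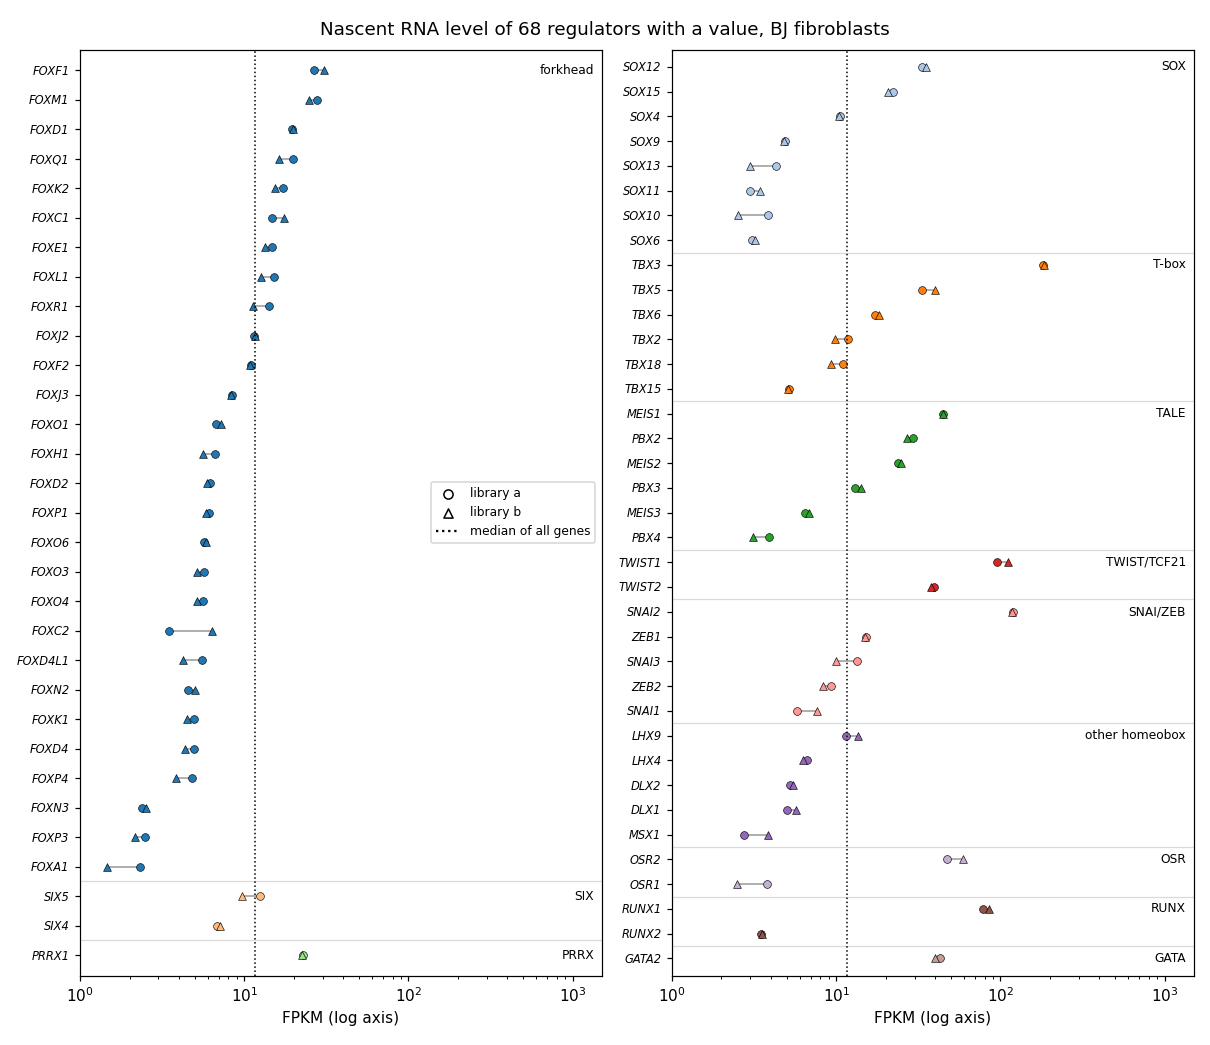
FPKM of 68 of the 70 members in library a (circles) and library b (triangles) on a log axis, grouped by family and ordered by mean within each. The dotted line is the median of all genes, 11.7. TBX3, SNAI2 and TWIST1 stand highest, and most forkhead and SOX genes lie left of the line.

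T-box genes gave the highest member. TBX3, a repressor known from limb and mammary development, stood at 182.43 and 184.89, with a mean of 184 ± 1.74, above 98.9% of all genes. TBX5, a regulator of the forelimb and heart, came next in the family at 33.41 and 39.98 (mean 36.7 ± 4.65). These 2 genes are neighbours in the RefSeq gene order. TBX6, known for its part in somite formation, was at 17.31 and 18.17. TBX2, the closest relative of TBX3, was at 11.73 and 9.86, and TBX4, a hindlimb and lung regulator that lies next to TBX2, had no value. TBX18 (11.03 and 9.31) and TBX15 (5.18 and 5.05), both of the TBX1 subfamily and known in mesenchyme, were lower, with the range of TBX18 overlapping that of TBX2, and the other 4 genes of that subfamily, TBX1, TBX10, TBX20 and TBX22, had no value. TBX19, a pituitary factor, and TBX21, the T helper cell factor T-bet, also had none. The family median was 14.3.

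The zinc finger repressors of the SNAI and ZEB families, which act at E-box sequences and repress epithelial genes such as CDH1, were led by 1 gene. SNAI2 (Slug) was at 119.46 and 118.17, whereas SNAI1 (Snail) was at 5.77 and 7.64 and SNAI3 at 13.32 and 9.96. ZEB1 had 15.23 and 14.99 and ZEB2 9.30 and 8.35. SNAI2 lay above the other 4 genes in both libraries, and no ranges overlapped among the 5. The keratinocyte marker CDH1 was at 1.49 ± 0.0141, above 1.72% of all genes. A link between its level and those of the SNAI and ZEB genes was not tested.

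The helix-loop-helix genes TWIST1 and TWIST2, mesenchymal regulators of the dermis and skull, were both high. TWIST1 was at 94.91 and 110.69 and TWIST2 at 39.46 and 37.94, so their ranges did not overlap, while TCF21, a regulator of visceral and cardiac mesenchyme, had no value. Their dimer partners of the E-protein class were lower: TCF4 at 19.1 ± 0.170, TCF12 at 14.4 ± 1.44 and TCF3 at 3.335 ± 0.346. HAND1 and HAND2, related helix-loop-helix genes, had no value.

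The RUNX genes, whose products bind DNA with the partner CBFB, differed widely. RUNX1, known as a blood stem cell regulator that is also active in mesenchymal cells, was at 78.33 and 85.60, against 3.49 and 3.54 for RUNX2, the master regulator of bone. RUNX3 had no value. CBFB itself was near the median gene, at 12.04 and 10.75. The span of RUNX2 overlaps SUPT3H (6.91 and 6.40). All overlaps given here use RefSeq spans on GRCh38, whereas the submitters' notes name hg19 for the values. Whether reads were counted by strand is not stated in any source used here, so reads of overlapping genes cannot be told apart. This limit holds here, in the cases that follow and for members that overlap an antisense gene. TBX3, TBX5, RUNX1, MEIS1 and GATA2 are among those members.

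Among the pairs of related genes considered here, RUNX1 over RUNX2 had the largest ratio in either direction, and DLX1 over DLX2 the smallest. Their RefSeq starts are shown because these pairs mark the ends of that range among the 9 pairs with both promoters in the RefSeq table (build GRCh38.p14), a choice made with the values known. Each window holds 250 bases before the start and 50 after it, 5′ to 3′ on the gene's strand, from chr21:34888650-34888949 (minus strand) for RUNX1, chr6:45328080-45328379 (plus) for RUNX2, chr2:172085257-172085556 (plus) for DLX1 and chr2:172102851-172103150 (minus) for DLX2. Capitals mark matches to any of 8 motifs searched on both strands.
RUNX1: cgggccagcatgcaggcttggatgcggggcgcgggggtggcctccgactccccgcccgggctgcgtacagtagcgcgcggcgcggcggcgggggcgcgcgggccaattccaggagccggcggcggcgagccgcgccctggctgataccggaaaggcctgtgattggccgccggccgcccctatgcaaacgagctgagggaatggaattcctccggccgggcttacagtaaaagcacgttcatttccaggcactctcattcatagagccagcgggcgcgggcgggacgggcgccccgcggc
RUNX2: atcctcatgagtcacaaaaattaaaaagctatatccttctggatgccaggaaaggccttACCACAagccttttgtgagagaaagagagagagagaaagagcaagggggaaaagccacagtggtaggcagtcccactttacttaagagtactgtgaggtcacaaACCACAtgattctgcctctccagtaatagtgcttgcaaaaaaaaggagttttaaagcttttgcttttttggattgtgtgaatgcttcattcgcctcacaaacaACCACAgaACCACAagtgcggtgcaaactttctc
DLX1: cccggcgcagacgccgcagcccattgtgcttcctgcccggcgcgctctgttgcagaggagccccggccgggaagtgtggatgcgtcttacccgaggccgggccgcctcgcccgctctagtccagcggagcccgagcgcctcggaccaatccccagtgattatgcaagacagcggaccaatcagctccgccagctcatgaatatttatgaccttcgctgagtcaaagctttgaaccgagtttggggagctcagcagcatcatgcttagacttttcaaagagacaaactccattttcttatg
DLX2: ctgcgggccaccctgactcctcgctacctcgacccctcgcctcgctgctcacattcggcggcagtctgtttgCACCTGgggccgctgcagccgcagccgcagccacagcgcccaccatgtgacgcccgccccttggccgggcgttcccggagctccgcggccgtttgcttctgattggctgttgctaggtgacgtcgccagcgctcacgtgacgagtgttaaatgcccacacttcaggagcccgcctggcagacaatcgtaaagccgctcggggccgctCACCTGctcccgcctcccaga

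The RUNX windows shown here differ in composition. The RUNX1 window held 40 CpG dinucleotides and 72% G and C, and the RUNX2 window 2 and 42.7%, against a median of 14 and 58.7% over all 35116 promoters of the table. At least 40 CpGs occur in 7.61% of those promoters and at most 2 in 18.2%. The RUNX2 window held 4 matches to TGTGGT, the core bound by RUNX proteins, all as ACCACA on the gene's strand, beginning 191 and 87 bases before the start and 16 and 24 bases after it. Of all promoters 13.1% hold at least 1 match and 5 (0.0142%) hold 4 or more, while the RUNX1 window held none. RUNX genes have a pair of alternative promoters. The RUNX1 start in this table lies inside the gene's annotated span and not at its end. The windows therefore need not be the starts used in these cells, nor the same type of promoter in both genes. The contrast is one of these windows and not of the genes as a whole. A link to their levels was not tested.
The DLX windows held 23 (DLX1) and 30 (DLX2) CpGs, and DLX2 had 2 matches to the E-box CAGGTG, 178 bases before and 29 after its start, a number that 3.49% of promoters reach. The other motifs, each without a match in these 4 windows, were the forkhead core TGTTTAC (in 3.42% of all promoters), AGATAA for GATA (10.3%), TGACAG for MEIS (15.8%), AGGTGTG for T-box (4.59%), TAATTA for homeodomains (4.84%) and the TATA box TATAAA (11.5%). CAGGTG itself occurs in 20.6%. A match is a description of letters only.

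The MEIS and PBX genes of the TALE homeobox class, cofactors that pair with HOX proteins on DNA, all had values. Their median was 13.6. MEIS1 was at 44.93 and 44.64, MEIS2 at 23.88 and 24.91 and MEIS3 at 6.44 and 6.82, with no overlap between them. PBX2 was highest of the PBX genes at 29.29 and 26.86, and lay above PBX3 (13.05 and 14.18) and PBX4 (3.87 and 3.11), again with no overlap. Of the related cofactor genes outside the symbol rule, PKNOX1 stood at 5.92 ± 0.0566 and PKNOX2 had no value.

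The odd-skipped zinc finger genes, known from limb and kidney mesenchyme, split widely. OSR2 was at 47.22 and 59.28, against 3.77 and 2.49 for OSR1. Of GATA2 to GATA6, GATA2 alone, a blood and endothelial regulator, had a value, at 42.73 and 39.98. GATA3, GATA4, GATA5 and GATA6 had none, and of the GATA cofactors ZFPM1 stood at 13.8 ± 1.05 and ZFPM2 had no value. PRRX1, a homeobox gene of limb and skin mesenchyme, was at 22.79 and 22.48, above 75.8% of all genes, and PRRX2 had no value.

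Most SOX genes with a value were weak, with a family median of 4.235. The exceptions were SOX12, of the SoxC group, at 33.46 and 35.20, and SOX15, of the SoxG group, at 22.18 and 20.72. The span of SOX15 overlaps that of MPDU1, which was at 33.34 and 32.98. All 3 SoxC genes, which act in progenitor cells, had values, with SOX4 at 10.54 and 10.45 and SOX11 at 3.205 ± 0.290. The cartilage regulators SOX9 (4.87 and 4.79) and SOX6 (3.06 and 3.22) were low, as was SOX13 (4.31 and 2.97). SOX10, the regulator of melanocytes and Schwann cells, was at 3.82 and 2.51, and it overlaps POLR2F (12.17 and 12.22). SOX10 is itself 1 of the 4 melanocyte markers with values. PMEL was at 22.4, MITF at 9.905 and MLANA at 4.53, while TYR and DCT had no value, and the part of melanocytes or of POLR2F reads in the SOX10 value was not tested.
All 3 SoxF genes of endothelium (SOX7, SOX17 and SOX18), the SoxB1 genes SOX1, SOX2 and SOX3 and the SoxB2 genes SOX14 and SOX21 had no value. SOX5, SOX8 and SOX30 had none either.

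Forkhead genes formed the largest family and a mostly weak one, with a median of 6.09 and 9 of 28 above the median gene. FOXF1, a mediator of hedgehog signals in mesenchyme, had the highest mean, at 26.62 and 30.50. FOXM1, the regulator of mitotic genes, was at 27.85 and 24.87, higher than FOXF1 in library a and with an overlapping range, and its span overlaps RHNO1 (19.05 and 22.11) and ITFG2 (17.47 and 18.29). FOXD1, a stromal gene of kidney and dermis, was at 19.59 and 19.83. FOXQ1 (19.66 and 16.25), FOXK2 (17.17 and 15.42) and FOXC1 (14.75 and 17.43) overlapped one another. FOXE1, a thyroid and palate regulator, stood at 14.0 ± 0.898, FOXL1 at 13.9 ± 1.90 and FOXR1 at 12.7 ± 2.02.

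Several forkhead genes known from many tissues lay below the median gene. FOXJ2 was at 11.6 ± 0.120, FOXJ3 at 8.365 ± 0.0354 and FOXK1 at 4.73 ± 0.325. The FOXO genes, effectors of insulin and stress signalling, ran within a narrow band from FOXO1 at 6.98 ± 0.325 through FOXO6 (5.775 ± 0.134) and FOXO3 (5.43 ± 0.410) to FOXO4 at 5.405 ± 0.332. FOXO3B, a near copy of FOXO3, had no value, and no source used here states how reads shared by near-identical copies were handled. FOXP1 was at 5.99 ± 0.156, FOXP4 at 4.32 ± 0.707, FOXN2 at 4.75 ± 0.339 and FOXN3 at 2.45 ± 0.0849.

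The other forkhead genes with values also had means below the median gene. FOXF2 had 10.9 ± 0.0354 and FOXD2 6.04 ± 0.198. FOXH1, a mediator of nodal signals in embryos, was at 6.66 and 5.62 and its span overlaps KIFC2, at 6.10 and 4.99. FOXD4 (4.665 ± 0.431) and FOXD4L1 (4.865 ± 0.912) belong to a group of near-identical copies, so their values are uncertain, and FOXD4L3, FOXD4L4, FOXD4L5 and FOXD4L6 had none. FOXP3, the regulatory T cell factor, was at 2.48 and 2.15 and overlaps CCDC22, at 7.55 and 5.99. FOXA1, an endodermal and mammary regulator, was lowest of all members at 2.32 and 1.46.
Among the forkhead genes with no value were FOXA2, FOXA3, FOXB1, FOXB2, FOXD3, FOXE3, FOXI1, FOXI2, FOXI3, FOXJ1, FOXL2, FOXL3, FOXN1, FOXN4, FOXP2, FOXR2 and FOXS1. FOXL2NB, a gene named for its place beside FOXL2, also matched the symbol rule and had none.

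Of the sine oculis homeobox genes, regulators of muscle and sensory organs, SIX5 was at 12.54 and 9.69 and SIX4 at 6.82 and 7.08. Both had means below the median gene, SIX5 only slightly, at 0.95 times that level. SIX2, SIX3 and SIX6 had no value. Of 6 cofactor genes of the EYA and DACH families that work with their proteins, EYA3 alone had one, at 14.3 ± 0.240. Among the other homeobox genes, LHX9 was highest at 11.43 and 13.56, followed by LHX4 at 6.59 and 6.30, DLX2 at 5.24 and 5.47, DLX1 at 5.03 and 5.65 and MSX1 at 2.75 and 3.83. DLX3 to DLX6, MSX2, MEOX1, MEOX2, EN1, LHX1, LHX2, LHX3, LHX5, LHX6 and LHX8 had no value. LDB1, the cofactor shared by LHX proteins, was well above them at 29.6 ± 1.34, and LDB2 was at 3.57 ± 0.467.

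Related genes were then compared within each library. Of 32 pairs listed for this purpose, 21 had values for both genes, 7 for 1 gene and 4 for neither. The ranges over the libraries did not overlap in 20 of the 21, compared with 93.1% of all pairs of genes in the table, and 12 differed by more than 2-fold, compared with 60.9% of all pairs. Related genes were thus set apart about as often as any pair of genes. Ratios are log2 of FPKM + 0.1, first gene over second, as mean ± SD over the libraries. RUNX1 exceeded RUNX2 22.7-fold (4.50 ± 0.0763) and SOX12 exceeded SOX13 9.35-fold (3.23 ± 0.421). SOX12 is of the SoxC group and SOX13 of the SoxD group, so this pair joins different SOX groups and is not one of closest relatives. SNAI1 lay 17.6-fold below SNAI2 (-4.14 ± 0.293), TBX2 16.9-fold below TBX3 (-4.08 ± 0.189) and OSR1 16.7-fold below OSR2 (-4.07 ± 0.641). In these 5 pairs the ratio passed 8-fold, with the same sign in both libraries.

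Smaller ratios were measured in the other pairs named here. FOXC1 exceeded FOXC2 3.36-fold (1.75 ± 0.436), SOX4 exceeded SOX11 3.21-fold (1.68 ± 0.135), TWIST1 exceeded TWIST2 2.64-fold (1.40 ± 0.197) and FOXF1 exceeded FOXF2 2.60-fold (1.38 ± 0.143), whereas FOXK1 lay 3.39-fold below FOXK2 (-1.76 ± 0.0118). Ratios under 2-fold stood at 1.90 for FOXN2 over FOXN3, 1.83 for MEIS1 over MEIS2, 1.71 for ZEB1 over ZEB2, 1.39 for FOXP1 over FOXP4, 1.38 for FOXJ2 over FOXJ3 and 1.28 for FOXO1 over FOXO3. TBX15 lay 1.96-fold below TBX18 and SIX4 1.58-fold below SIX5. DLX1 and DLX2, the pair whose ranges overlapped, had a log2 ratio of -0.0060 ± 0.0734.

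**Figure D3:**
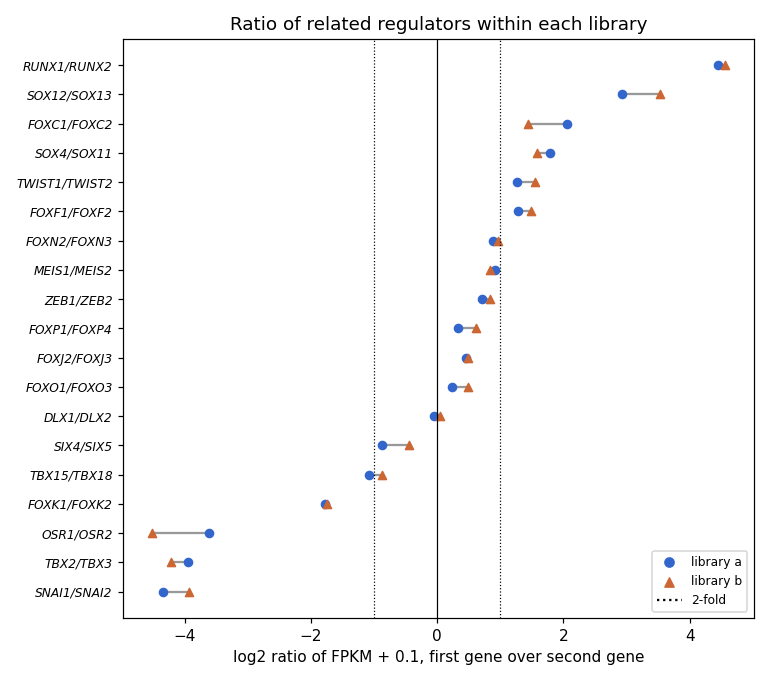
Log2 ratio of FPKM + 0.1 for 19 of the 21 pairs of related genes, first gene over second, in library a (circles) and library b (triangles), with dotted lines at 2-fold. RUNX1 over RUNX2 lies at 4.50 and SNAI1 over SNAI2 at -4.14, and DLX1 over DLX2 falls on both sides of 0.

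Some members lie side by side in the genome. RefSeq gene order (GRCh38.p14) gave 16 neighbouring pairs with at most 1 other protein-coding gene between them. Of these, 7 had values for both genes, 4 for 1 and 5 for neither. The share among neighbouring pairs of all genes was not computed, so these counts are a description only. The forkhead trio FOXF1, FOXC2 and FOXL1 had values throughout, at means of 28.6, 4.915 and 13.9, as did the second trio FOXQ1, FOXF2 and FOXC1 at 18.0, 10.9 and 16.1. TBX5 and TBX3 (36.7 and 184) and DLX1 and DLX2 (5.34 and 5.355) were further pairs with values for both. TBX4 beside TBX2, FOXE3 beside FOXD2 and LHX5 near TBX5 had no value. Neither gene had one for DLX3 and DLX4, DLX5 and DLX6, SIX2 and SIX3, FOXL2 and FOXL2NB, or FOXD4L4 and FOXD4L5.

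Of 31 partner genes of these families, 17 had a value, with a median of 11.4 and 8 above the median gene. The Groucho corepressor TLE4 was highest at 89.06 and 83.69, followed by TLE5 at 32.3 ± 0.757, whereas TLE1 was at 1.47 ± 0.0424 and TLE2 and TLE3 had no value. The ZEB corepressors CTBP1 (8.365 ± 0.460) and CTBP2 (10.75 ± 0.0566) lay below the median gene.

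The libraries measured the members closely. The median member differed by a factor of 1.09 between them, against 1.099 for the median gene, and no member differed by more than 2-fold. After centring on the median gene, 2 members (2.86%) differed by more than 1.5-fold, compared with 2.16% of all genes. These were FOXC2, which stood higher in library b (3.47 against 6.36), and FOXA1, higher in library a (2.32 against 1.46). Both were among the 19 members at a mean FPKM of 5 or less, and in that range 6.68% of all genes passed 1.5-fold. OSR1 (3.77 and 2.49) and SOX10 (3.82 and 2.51) lay just inside the limit. The values of FOXC2, FOXA1, OSR1 and SOX10 are therefore known less closely than those of TBX3 or SNAI2. Of the 70 members, 36 overlap another RefSeq gene, 17 an antisense gene by name and 6 a protein-coding gene with a value. Overlaps were not counted over all genes, so these counts do not mark a trait of the members.

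**Figure D4:**
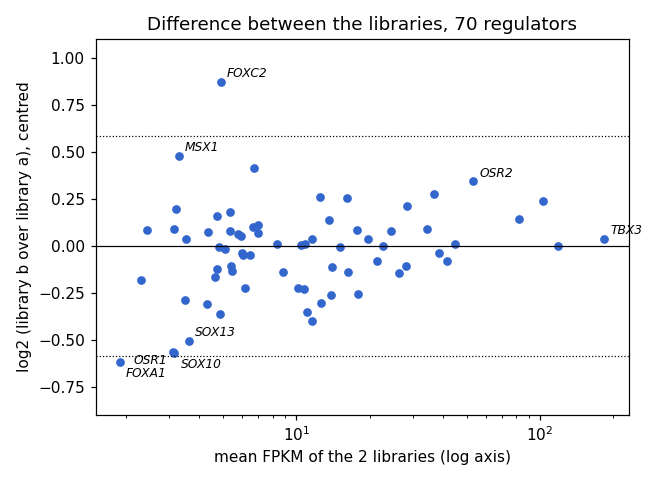
Difference between the libraries (log2 of library b over library a, centred on the median gene) against mean FPKM on a log axis for the 70 members, with dotted lines at 1.5-fold. FOXC2 and FOXA1 lie past the lines, and members above an FPKM of 10 all lie within them.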

How the data were processed

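Nascent RNA was measured by GRO-seq in 2 biological replicates of untreated BJ cells. The deposited table holds FPKM values made by the authors for 12353 Ensembl identifiers, and the replicates were not pooled. Per the submitters' processing notes, Bowtie2, HTSeq and the genome build hg19 were used; no version is given. Gene length, scaling total and strand setting: not given in the sources used here. Depth is unknown, because library ratios gave no common step: the fullest of 400 bins of 0.001 log2 units held 20 of 2741 genes over FPKM 20, against 9.575 on average in the 20 bins on either side.

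An Ensembl name table gave current symbols for 12202 identifiers; the other 151 were kept in the background unnamed and could include members. Genes, families, pairs, partners and markers were chosen with earlier results of these data known. Levels were compared on log2(FPKM + 0.1). With 1 group no p-value was computed. Differences between libraries were centred on the median gene. The procedure was tested on simulated data. Some members and pairs are counted but not reported by name here. Any other member with a value may be named; partner and marker genes come from fixed lists, and genes whose spans overlap a member are named for that reason. Alternatives were a pseudocount of 1, a minimum FPKM of 1 in both libraries, quantile normalization, no centring, other definitions of a gene with a value, and leaving out each library. A set comparison of promoter composition is void, because 48 of 70 members with a value (68.6%) and 46 of 66 without (69.7%) had a promoter in the RefSeq table, under the 80% required. Protein sequences were not used here, so the identity of related proteins was not computed. Python 3.11.15, numpy 2.4.6, pandas 2.3.3 and matplotlib 3.10.9 were used.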

Additional observations from a re-analysis of the deposited data

How the results depend on the processing

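The share of members with a value was 37.5% when a mean FPKM of 5 or more was required and 39.1% with all matching symbols of the name table, noncoding ones included, as the denominator, and it was 51.5% with a minimum FPKM of 1 in both libraries. The number of members past 1.5-fold between libraries was 1 with a pseudocount of 1 and 1 with quantile normalization, and 3 without centring. The members' median relative to all genes ranged from -0.48 without library a to -0.41 without library b. The count of members above the median gene ranged from 26 to 28, that of families with a median above the median gene (of the 7 with at least 3 values) from 2 to 3, and that of pairs past 2-fold from 12 to 13 when either library was left out. The log2 median of SNAI and ZEB genes relative to all genes was -0.02 with both libraries, -0.23 without library a and 0.18 without library b, and the log2 ratio of DLX1 over DLX2 was -0.0060, 0.0459 and -0.0579; the cause was not tested. Without library a or b the other family medians and pair ratios kept their direction. No paired analysis was possible because the series has 1 group. With 2 libraries and no read depth, an SD is itself uncertain and low values cannot be given a counting error.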
